A study of Mus musculus with 4 samples.

Results

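Rab GTPases were compared across 4 myeloid populations of the mouse large intestine. The genes were those whose symbol is Rab followed by a digit on probe sets naming exactly 1 gene, and symbols of interacting proteins (ip or fip after the number) were left out. This took 54 genes with 103 probe sets, of 12393 genes and 22690 probe sets in all, of which 20380 name exactly 1 gene. Among them, 50 genes with 95 probe sets name a Rab GTPase. The 4 others carry the letters only. They are Rab3gap2 and Rab3il1, which act on Rabs and are described with the regulators, Rab5if, a small membrane protein named for binding Rab5, and the antisense transcript Rab26os.

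All cells were taken from C57BL/6J mice, from the lamina propria (the tissue layer beneath the gut lining) of the large intestine, with no treatment named in the labels. CX3CR1high macrophages were CD11c+ CD11b+ with a high level of the fractalkine receptor, and CX3CR1- cells were CD11c+ CD11b+ without it. CD11b+ cells were CD11c-, and CD11chigh DCs (dendritic cells) were CD11b-. The CX3CR1- sample also bears DC in its title, but DCs here means the CD11chigh population. The CD11b+ sample bears Mf (macrophage) in its title, as the CX3CR1high sample does, but macrophages here means the CX3CR1high population. Age, sex and the number of mice were not given in the sources used here.

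Each population was hybridised to 1 array, so there were no replicates, no test and no p-value, and precision is limited by this small number of arrays. Values are the authors' linear signal intensities, whose trimmed mean was the same on each array. Signals under a floor of 103, the pooled median of non-control probe sets, were set to it for ratios. Where 1 of both signals lay under the floor, the fold is the least it can be and is printed after the words at least. Where both did, no ratio was formed. A gene was called at 2-fold or more. As the only spread at hand, log2 ratios differed between probe sets of the same gene with an SD of 0.31 to 0.52 in the 6 pairs of populations, a figure that holds no variation among mice or sorts.

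The array medians ran from 88.5 in DCs to 110.2 in CD11b+ cells. The ratio of 3′ over 5′ signals of the Gapdh control, a measure that is higher for broken RNA, was 0.791 in DCs, 1.08 in macrophages, 2.17 in CD11b+ cells and 3.40 in CX3CR1- cells. That of the Actb control was 1.11, 1.68, 3.18 and 2.76 in the same populations, so the controls differ on which array was highest. The labels were checked against marker genes. All 11 measured macrophage markers reached the floor in macrophages, CD11b+ cells and CX3CR1- cells, and 8 did in DCs. Their summed signals were 182215, 119764, 86699 and 16942 in these populations. Of the 11, 10 were highest in macrophages, and Cd14 was highest in CD11b+ cells (34228, against 27527 in macrophages). Among 9 DC markers, 9 reached the floor in DCs, 8 in CX3CR1- cells and 5 in each other population. Other cells were also read. The summed signal of 13 epithelial markers was 23326 in macrophages and 3350 to 8194 elsewhere, and that of 12 fibroblast, muscle and endothelial markers was 63228 in CD11b+ cells and 5602 to 23360 elsewhere. The CD11b+ cells also had the highest sums of 5 monocyte markers (40529, and 12275 to 22746 elsewhere), 9 neutrophil markers (9192, and 360.0 to 2165) and 5 B and plasma cell markers (34703, and 10310 to 18883). The sum of 10 eosinophil and mast cell markers was 2632 in CD11b+ cells, 2279 in CX3CR1- cells, 433 in macrophages and 294 in DCs. Of those at the floor somewhere, Hdc and Prg2 were highest in CD11b+ cells. Siglecf (544, and 203 in CD11b+ cells) and Ccr3 (141, under the floor elsewhere) were highest in CX3CR1- cells. Few genes carried some of these sums. In CD11b+ cells Jchain had 34144, S100a8 4058, S100a9 3416 and Hdc 2116 (1376 in CX3CR1- cells). Col3a1 had 28325 there, Dcn 15299 and Col1a2 13382. Of the 9 fibroblast, muscle and endothelial markers at least 2-fold apart, 8 were highest in CD11b+ cells and 1, Cdh5, in macrophages. The endothelial markers did not follow the sum, as Kdr too was highest in macrophages and Pecam1 in CX3CR1- cells, both under 2-fold. Under the floor in every population were 3 neutrophil, 2 B and plasma cell and 6 eosinophil and mast cell markers. Of the 5 monocyte markers, 3 were highest in CD11b+ cells. F13a1 was highest in macrophages (15238) and S100a4 in CX3CR1- cells (19758). The part of these other cells in the Rab signals was not tested.

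Rab proteins are small GTPases that give each membrane compartment its identity. They sit on a membrane in the GTP-bound form, where they recruit tethers, motors and fusion factors, and return to the cytosol in the GDP-bound form. Exchange factors (GEFs) load GTP, and GTPase activating proteins (GAPs) with a TBC domain end the active state. In macrophages and DCs, Rabs order the maturation of phagosomes, the delivery to lysosomes and the recycling of receptors and antigen-presenting molecules to the surface.

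Of the 50 Rab GTPase genes, 38 had a signal at the floor or above in at least 1 population, which is 76.0% against 63.3% of all genes, and 32 had one in all 4. The other 12 were under the floor in every population and are described last. Signals were at least 2-fold apart between the highest and the lowest population for 12 of the 38 genes, against 41.4% of all genes with a signal at the floor. The 12 were Rab7b, Rab8a, Rab9, Rab11a, Rab12, Rab13, Rab15, Rab20, Rab24, Rab31, Rab34 and Rab43. The median of highest over lowest signal was 1.70-fold over the 38 Rab genes and 1.82-fold over all genes, with lower bounds taken at their value. Just inside the limit lay Rab15 at 2.10-fold, a bound, and Rab9 at 2.36-fold, and just outside it Rab33b at 1.90-fold and Rab4b at 1.88-fold. Without the DC array the count was 5 of 37, against 21.0% of all genes. With the CX3CR1- array left out instead, it was 9 of 38, against 36.0%.

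**Figure D1:**
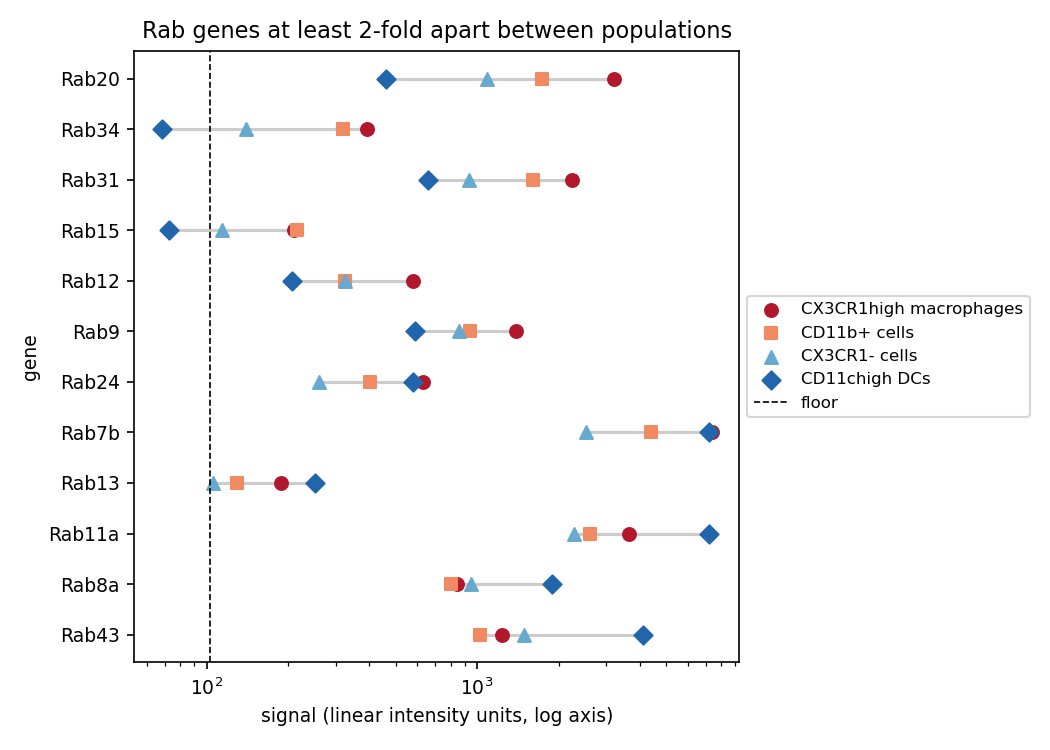
Signals (linear intensity units on a log axis) of the 12 Rab genes at least 2-fold apart, with 1 point per population from 1 array each and no error bars, since there were no replicates. The dashed line is the floor of 103, and grey lines span the lowest to the highest signal. Genes are ordered by the macrophage signal over the DC signal, from Rab20 at the top, highest in macrophages, to Rab43 at the bottom, highest in DCs.

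The highest signal was in macrophages for 14 genes, against 25.9% of all genes, and in DCs for 14, against 32.4%. It was in CD11b+ cells for 9, against 23.4%, and in CX3CR1- cells for 1, Rab8b, against 18.3%. The lowest signal was in DCs for 15 genes, against 38.2% of all genes, and in CX3CR1- cells for 14, against 19.7%. The macrophages were lowest for 3, against 24.4%, and the CD11b+ cells for 6, against 17.6%. Some of these ranks lie among signals under the floor, which have no order. Over the 34 genes with at most 1 signal under it, the highest signal was in macrophages for 11, in CD11b+ cells for 9, in CX3CR1- cells for 1 and in DCs for 13, against 24.5%, 22.5%, 19.3% and 33.7% of all such genes. The lowest was in DCs for 13 and in CX3CR1- cells for 12 of the 34, against 37.4% and 19.8%.

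Promoter windows are shown for Rab20 and Rab11a, because they are the members furthest above the DCs in macrophages and furthest above the CX3CR1- cells in DCs that have a single annotated start in the table used. Each window holds 300 bases, 250 before to 50 after the start, from RefSeq on GRCm38.p6, 5′ to 3′ along the gene. The Rab20 window is at chr8:11478591-11478890 and the Rab11a window at chr9:64737707-64738006, both on the minus strand. Capitals mark a match on either strand to GAGGAA (the core of a PU.1-type site), CACGTG (an E-box), TGANTCA (an AP-1 site) or an IRF-type site, which is GAAA, any 2 bases and GAAA.
Rab20: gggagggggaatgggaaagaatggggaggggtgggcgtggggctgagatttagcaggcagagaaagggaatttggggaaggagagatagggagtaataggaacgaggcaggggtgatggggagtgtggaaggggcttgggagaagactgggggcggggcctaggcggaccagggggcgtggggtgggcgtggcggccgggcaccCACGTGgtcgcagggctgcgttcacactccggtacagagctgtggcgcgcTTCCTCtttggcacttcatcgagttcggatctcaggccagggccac
Rab11a: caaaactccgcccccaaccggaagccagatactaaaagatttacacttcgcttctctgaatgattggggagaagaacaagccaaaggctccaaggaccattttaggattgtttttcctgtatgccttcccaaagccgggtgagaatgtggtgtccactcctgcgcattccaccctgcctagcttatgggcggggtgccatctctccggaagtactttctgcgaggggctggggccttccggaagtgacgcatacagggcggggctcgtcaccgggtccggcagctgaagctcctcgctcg
The Rab20 window held 1 CACGTG and 1 GAGGAA match, the latter on the other strand, and they do not overlap. None of the 4 patterns was in the Rab11a window, which says only that these letters are not there. The shorter GGAA core that ETS factors share was not searched. The table held windows for 42 of the 50 genes, 54 in all. GAGGAA was in 20.4% of the Rab windows and 28.3% of all 32851 windows, CACGTG in 11.1% and 7.15%, TGANTCA in 3.7% and 7.81%, and the IRF-type site in 0% and 3.44%. A match is a description of the sequence and no measured site.

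Rabs of early endosomes and phagosomes held the members with the highest macrophage signals relative to DCs. Of 12 genes in this group, 10 reached the floor somewhere and 3 were called, Rab20, Rab31 and Rab34, beside the 41.4% of all genes. Rab20 (probe set 1438097_at), found on phagosomes and early endosomes of macrophages, had signals of 3212 in macrophages, 1739 in CD11b+ cells, 1089 in CX3CR1- cells and 461 in DCs. It was 6.97-fold higher in macrophages than in DCs, 2.95-fold higher than in CX3CR1- cells and 1.85-fold higher than in CD11b+ cells. The CX3CR1- cells (2.36-fold) and the CD11b+ cells (3.77-fold) also stood above the DCs. It was called in 4 of the 6 pairs.

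Rab31 (probe set 1416165_at), which works between the trans-Golgi network and endosomes, had 2248 in macrophages, 1615 in CD11b+ cells, 931 in CX3CR1- cells and 659 in DCs. The macrophages were thus 3.41-fold above the DCs and 2.41-fold above the CX3CR1- cells. The CD11b+ cells were 2.45-fold above the DCs. With equal array medians this last log2 ratio was 0.98, just under the limit, and with the mean over both Rab31 probe sets, of which the second was under the floor in every population, it was 0.59. Rab34 (probe set 1416591_at), known for macropinosomes and phagosome maturation, had 392, 321, 140 and 68.4 in the same order of populations. That was at least 3.81-fold higher in macrophages than in DCs and 2.79-fold higher than in CX3CR1- cells. The CD11b+ cells were at least 3.12-fold above the DCs. Rab34 was also the 1 Rab gene called between the CX3CR1- and CD11b+ cells, 2.28-fold lower in CX3CR1- cells, and so was called in 4 pairs too. A second Rab34 probe set gave 403, 317, 140 and 49.2.

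No other early endosome member was called. Rab5a, which drives fusion of early endosomes, ran from 2499 in CX3CR1- cells to 3222 in CD11b+ cells. Rab5c, its close relative, had 2753 in macrophages, 2284 in CD11b+ cells, 1875 in CX3CR1- cells and 1642 in DCs. Rab4b, of fast recycling, stood at 1403 in DCs and 745 to 880 in the other populations. Rab14 ranged from 3172 to 4079, Rab21 from 1031 to 1612 and Rab22a from 399 to 738. Rab4a was under the floor in all but the macrophages (151), so its fold is only bounded, at 1.47 or more.

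Rab20, Rab31, Rab34, Rab5c, Rab6b and Rab9 shared 1 order of signals, with the macrophages highest, then the CD11b+ cells, the CX3CR1- cells and the DCs. These were 6 of 38 Rab genes, against 11.3% of all genes. Rab6b passed the floor in macrophages alone, so its order has no weight, and over genes with at most 1 signal under the floor the count was 5 of 34, against 11.1%. The summed signal of the 11 macrophage markers had the same order, 182215, 119764, 86699 and 16942. Of the 11, 8 had it singly, and C1qa, Cd68 and Cd14 did not. In sorted populations read in bulk, fewer cells of a type and less RNA per cell cannot be told apart. The share of this order that follows the macrophage markers was not tested.

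Late endosome, lysosome and autophagosome Rabs were 4 genes, all at the floor or above in every population, and 3 of them were called, beside the 41.4% of all genes. Rab7, which drives fusion of late endosomes with lysosomes, had 6661 in macrophages, 6169 in CD11b+ cells, 6319 in CX3CR1- cells and 5891 in DCs, 1.13-fold apart. A second Rab7 probe set was 1.62-fold apart, with 1695 in macrophages, 1043 in CD11b+ cells, 1305 in CX3CR1- cells and 1667 in DCs. Rab7b (probe set 1424987_at), which acts on transport from late endosomes to the Golgi and is known to limit Toll-like receptor signalling in macrophages, was called. It had 7357 in macrophages and 7192 in DCs, against 4392 in CD11b+ cells and 2526 in CX3CR1- cells. The CX3CR1- cells were 2.91-fold below the macrophages and 2.85-fold below the DCs. A second Rab7b probe set gave 2477, 2723, 1333 and 763 for the same populations, with the same 2 populations high.

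Rab24 (probe set 1421872_at), linked to autophagy, had 633 in macrophages, 579 in DCs, 404 in CD11b+ cells and 260 in CX3CR1- cells. It was 2.44-fold lower in CX3CR1- cells than in macrophages and 2.23-fold lower than in DCs. Both calls were lost with a floor at the 75th percentile, with log2 ratios of 0.48 and -0.35. With the mean over both Rab24 probe sets the log2 ratio of the CX3CR1- cells over the DCs was -0.69. The second set itself gave 0.76 for macrophages over CX3CR1- cells and -0.23 for CX3CR1- cells over DCs. Both calls thus rest on the first probe set. Rab9 (probe set 1448391_at), which returns mannose 6-phosphate receptors from late endosomes to the Golgi, had 1388 in macrophages, 938 in CD11b+ cells, 856 in CX3CR1- cells and 587 in DCs. The macrophages were 2.36-fold above the DCs, and with equal medians the log2 ratio was 0.93, under the limit.

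For Rab7b and Rab24, the macrophages and DCs were both above the CD11b+ cells and the CX3CR1- cells were lowest. Rab11a, Rab13, Rab18 and Rab4b had this pattern too, 6 of 38 Rab genes, against 9.51% of all genes. The Gapdh 3′ over 5′ ratio was 0.791 and 1.08 in DCs and macrophages, 2.17 in CD11b+ cells and 3.40 in CX3CR1- cells, and the arrays with the higher ratios had the lower signals. By the Actb ratio, too, the CD11b+ and CX3CR1- arrays were the higher ones, but with the CD11b+ cells (3.18) above the CX3CR1- cells (2.76), which had the lower signals. Rab11a, Rab13 and Rab4b ran in full from DCs through macrophages and CD11b+ cells to CX3CR1- cells, the reverse of the Gapdh ratio but not of the Actb ratio. These were 3 of 38 Rab genes, against 6.36% of all genes. In the other Rab11a probe set the CX3CR1- cells (1317) were not below the CD11b+ cells (1307), so Rab11a has both patterns only in the chosen set. The part of RNA integrity in these 6 genes was not tested.

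**Figure D2:**
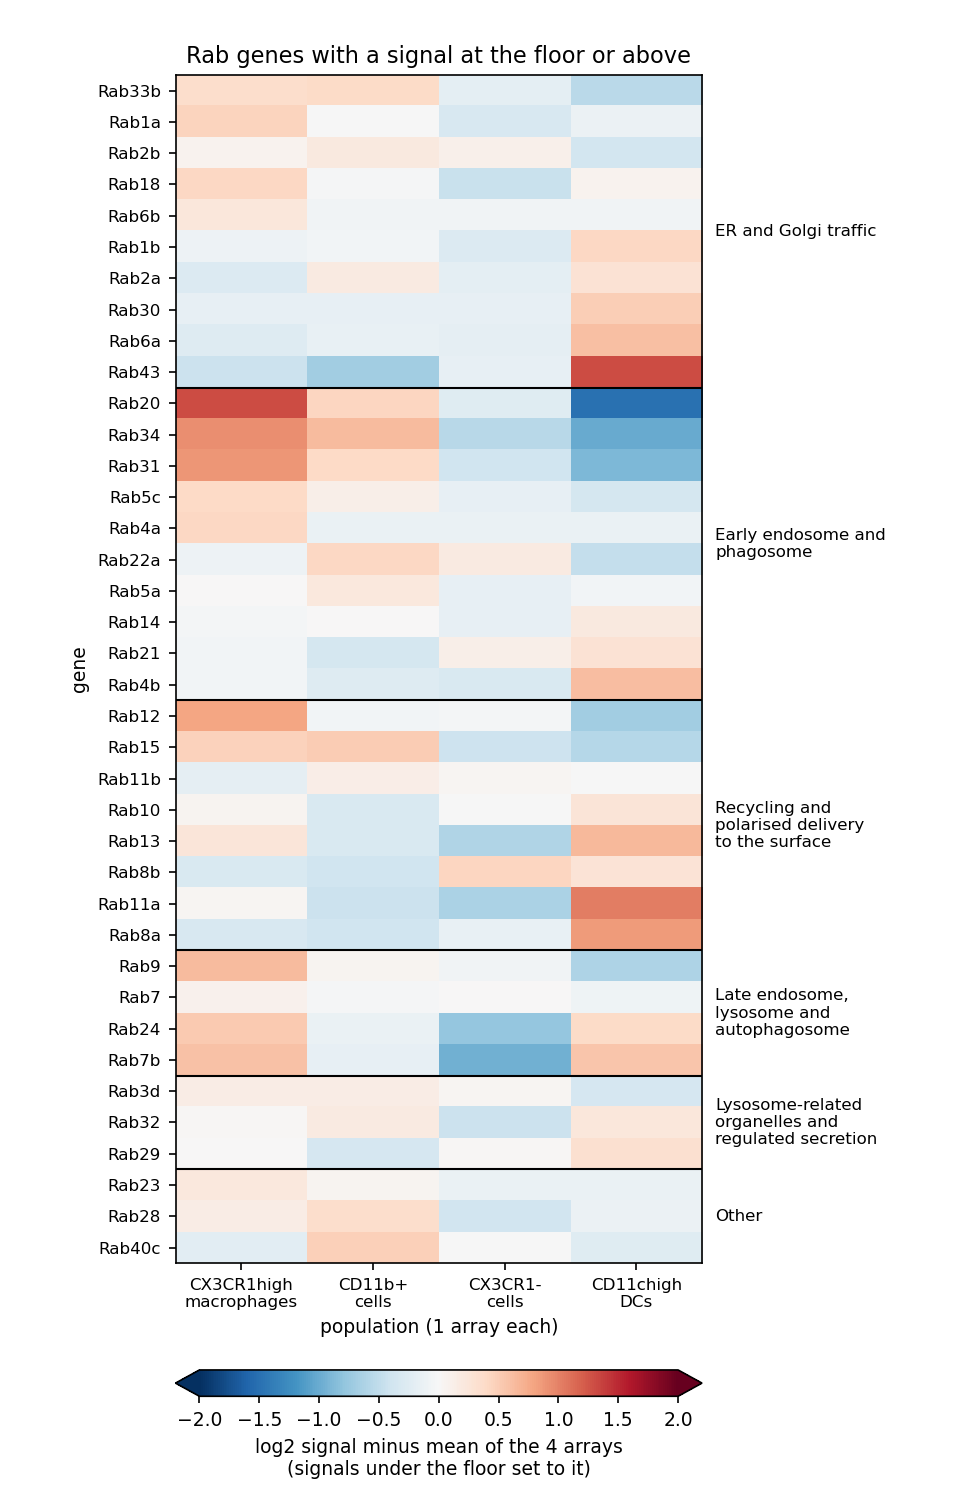
Heat map of the 38 Rab genes with a signal at the floor or above, grouped by role, with 1 column per population (1 array each). Colour is the log2 signal, floored at 103, minus the mean of the 4 arrays, red above and blue below. Rab20, Rab31 and Rab34 are red in macrophages and blue in DCs, Rab43, Rab11a and Rab8a are red in DCs, and Rab7b and Rab24 are blue in CX3CR1- cells.

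Of the 8 recycling and surface delivery Rabs at the floor, 5 were called, beside the 41.4% of all genes, and they ran in opposite directions. Rab11a (probe set 1449256_a_at), of the recycling endosome, where DCs also store MHC class I molecules, had 7186 in DCs, 3654 in macrophages, 2620 in CD11b+ cells and 2280 in CX3CR1- cells. The DCs were 3.15-fold above the CX3CR1- cells and 2.74-fold above the CD11b+ cells, and 1.97-fold above the macrophages. This probe set is of a type that can match more than 1 transcript. The other Rab11a probe set gave 2116 in DCs and 1307 to 1352 in the other populations. Its log2 ratios of the CX3CR1- and CD11b+ cells over the DCs were -0.68 and -0.69, so both calls rest on the first probe set.

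Rab8a (probe set 1418692_at), which carries vesicles from the Golgi and endosomes to the surface, had 1896 in DCs, 951 in CX3CR1- cells, 845 in macrophages and 801 in CD11b+ cells. It was 2.24-fold lower in macrophages and 2.37-fold lower in CD11b+ cells than in DCs, and the CX3CR1- cells lay 1.99-fold below the DCs. The related Rab8b ran otherwise, at 17930 in CX3CR1- cells, 16096 in DCs, 10840 in macrophages and 10148 in CD11b+ cells, and was not called. Rab13 (probe set 1424894_at), of polarised delivery to cell junctions, had low signals of 251 in DCs, 189 in macrophages, 129 in CD11b+ cells and 106 in CX3CR1- cells. The DCs were 2.38-fold above the CX3CR1- cells.

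Rab12 and Rab15 went the other way. Rab12 (probe set 1427992_a_at), which steers the transferrin receptor from recycling to lysosomes, had 577 in macrophages, 325 in CD11b+ cells, 326 in CX3CR1- cells and 208 in DCs. The macrophages were 2.78-fold above the DCs, but the log2 ratio was 0.35 with the floor at the 75th percentile. Rab15 (probe set 1417829_a_at), known from recycling endosomes of neurons, had 216 in CD11b+ cells, 210 in macrophages, 114 in CX3CR1- cells and 72.9 in DCs. The DCs were under the floor, and the bounds of at least 2.10-fold for the CD11b+ cells and at least 2.04-fold for the macrophages both fell under the limit with quantile normalization and with equal medians. Rab10 ranged from 2115 to 3144 and Rab11b from 781 to 968, with no call.

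Of the 10 ER and Golgi Rabs at the floor, 1 was called, beside the 41.4% of all genes. That gene was Rab43 (probe set 1425333_at), which acts between the ER and the Golgi and is known from mouse DCs for its part in cross-presentation, the display of engulfed antigen on MHC class I. Rab43 had 4094 in DCs, 1486 in CX3CR1- cells, 1233 in macrophages and 1026 in CD11b+ cells. The DCs stood 3.99-fold above the CD11b+ cells, 3.32-fold above the macrophages and 2.76-fold above the CX3CR1- cells, apart from all 3 others. The second Rab43 probe set was under the floor in every population, at 34.1 to 73.4. With the mean over both sets, which such a dim set pulls down, the log2 ratios of the CX3CR1- and CD11b+ cells over the DCs were -0.92 and -0.73.

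The signal order of Rab43 and Rab8a, from DCs through CX3CR1- cells and macrophages to CD11b+ cells, was shared by Rab21 and Rab29. They were 4 of 38 Rab genes, against 6.00% of all genes. The summed signal of the 9 DC markers had the same order, 37560, 22712, 6349 and 5143, but not every marker did. Of the 9, 6 were highest in DCs and 3, Zbtb46, Itgax and Kit, in CX3CR1- cells. Irf8, with 11382 in DCs, was lowest in CX3CR1- cells (1619). What the DC markers have to do with these 4 genes was not tested. Rab21 and Rab29 were only 1.56- and 1.58-fold apart and not called. A second Rab21 probe set had another order, with 283 in CX3CR1- cells, 252 in DCs, 204 in CD11b+ cells and 144 in macrophages.

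Rab1a, which the ER-to-Golgi route needs, had 8331 in macrophages, 6056 in CD11b+ cells, 5618 in DCs and 4853 in CX3CR1- cells. Rab6a, of traffic within and from the Golgi, had 2334 in DCs and 1275 to 1375 elsewhere. Rab18, of the ER and lipid droplets, ran from 766 in CX3CR1- cells to 1385 in macrophages. Rab33b, linked to the Golgi and autophagy, ran from 355 in DCs to 676 in CD11b+ cells. Rab1b ranged from 407 to 654, Rab2a from 1659 to 2455 and Rab2b from 125 to 184. Rab30 passed the floor in DCs alone (161) and Rab6b in macrophages alone (126).

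Of 10 Rabs of lysosome-related organelles and regulated secretion, 3 reached the floor, beside 63.3% of all genes, and 0 of the 3 were called, beside 41.4%. Rab32, of melanosomes and other lysosome-related organelles, had 1424 in DCs, 1383 in CD11b+ cells, 1234 in macrophages and 908 in CX3CR1- cells. Rab29, found at the Golgi and lysosomes, ranged from 265 to 419, and Rab3d, of secretory granules, from 146 to 205. Among the remaining Rabs, Rab28 ranged from 276 to 462, Rab40c from 227 to 375 and Rab23 from 66.4 to 130.

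Under the floor in all 4 populations were Rab3a, Rab3b, Rab3c, Rab5b, Rab17, Rab25, Rab27a, Rab27b, Rab33a, Rab37, Rab38 and Rab40b. Of these, 7 belong to the group of regulated secretion. A signal under the floor sets a limit for these probe sets and does not show that a transcript was lacking. Rab25, known from epithelium, had 94.8 in macrophages and 26.6 to 30.4 elsewhere, all under the floor, where signals have no order. The epithelial markers summed to 23326 in macrophages, and their part in the Rab25 signals was not tested.

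The Rab genes were also set against all genes pair by pair. Macrophages over DCs gave 6 of 38 Rab genes higher and 2 lower, against 17.4% and 10.2% of all genes. Those higher were Rab9, Rab12, Rab15, Rab20, Rab31 and Rab34, and those lower Rab8a and Rab43. With equal medians the split was 4 higher and 4 lower, and that of all genes 13.3% and 18.3%. Macrophages over CX3CR1- cells gave 5 of 37 higher and 0 lower, against 8.56% and 6.54%. Here the 5 were Rab7b, Rab20, Rab24, Rab31 and Rab34. Macrophages over CD11b+ cells gave 0 of 37 in either direction, against 4.66% higher and 5.83% lower. The medians of the Rab log2 ratios were 0.10, 0.30 and 0.20 in these comparisons, and those of all genes 0.02, 0.02 and -0.02. These comparisons share the macrophage array.

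CX3CR1- cells over DCs gave 1 of 35 Rab genes higher, Rab20, and 5 lower, against 13.7% and 8.70% of all genes. The lower members were Rab7b, Rab11a, Rab13, Rab24 and Rab43. With equal medians 8 were lower, and 10.6% and 13.9% of all genes were higher and lower. CD11b+ cells over DCs gave 4 of 36 higher (Rab15, Rab20, Rab31 and Rab34) and 3 lower (Rab8a, Rab11a and Rab43), against 17.0% and 10.4%. With equal medians this split was 2 and 7, with 12.9% and 18.1% of all genes. CX3CR1- over CD11b+ cells gave 0 of 35 higher and 1 lower, Rab34, against 3.55% and 5.19%. Median Rab log2 ratios were -0.21, 0.01 and -0.21, beside 0.04, 0.07 and -0.06 for all genes.

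**Figure D3:**
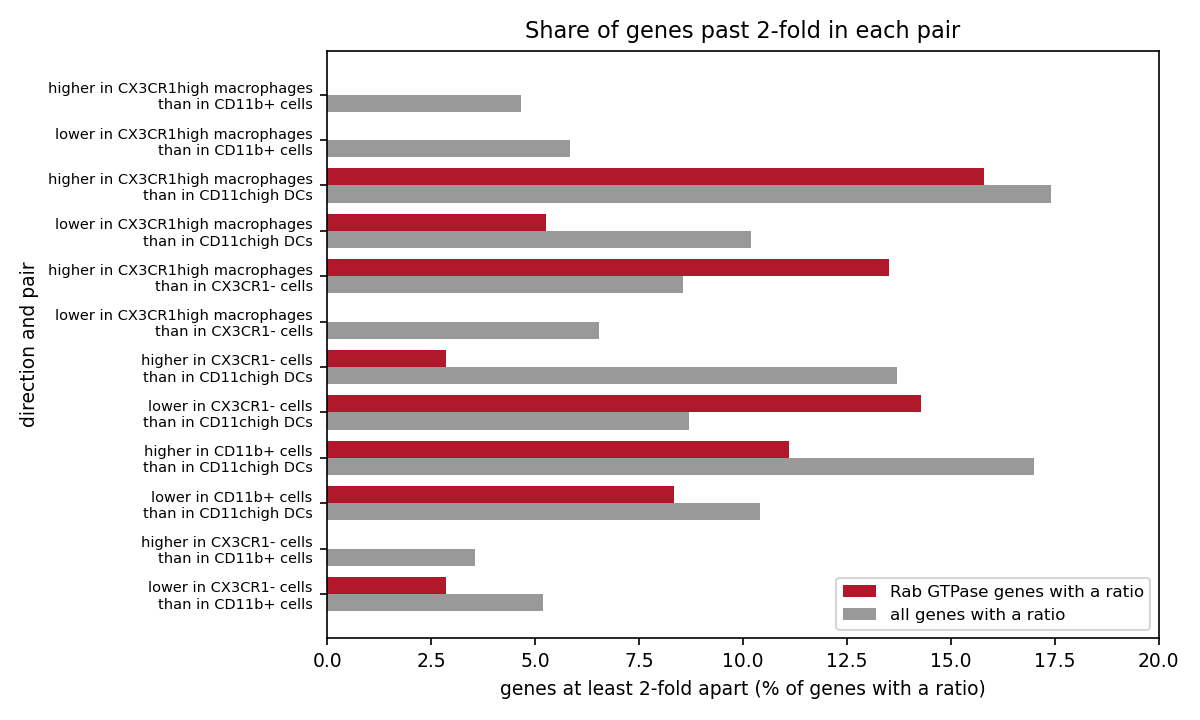
Share of genes at least 2-fold apart in each direction of each pair of populations, in percent of genes with a ratio, for the Rab GTPase genes (red, 35 to 38 genes) and all genes (grey), with 1 array per population. The red bars lie above the grey for macrophages over CX3CR1- cells and for CX3CR1- cells lower than DCs, and below the grey in the other comparisons, with 4 of the 12 at 0.

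Other probe sets of the same genes were read as a check within the arrays. They numbered 45, of which 24 reached the floor somewhere. Of 10 called ratios that could be read in another probe set, 10 had the same sign. They came from 4 genes, Rab7b, Rab11a, Rab24 and Rab34, and 4 of the 10, those of Rab11a and Rab24, were under 2-fold in the other set. Over all 135 ratios readable in 2 sets, called or not, 93 had the same sign. Ratios that passed 2-fold only in another probe set were found for 7 genes in 1 pair each. In 6 of them, Rab1a, Rab3d, Rab7b, Rab10, Rab22a and Rab28, the sign was the same as in the chosen set. Rab2a is uncertain, as the CX3CR1- cells were 1.40-fold below the DCs in the chosen set and 2.24-fold above them in another.

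**Figure D4:**
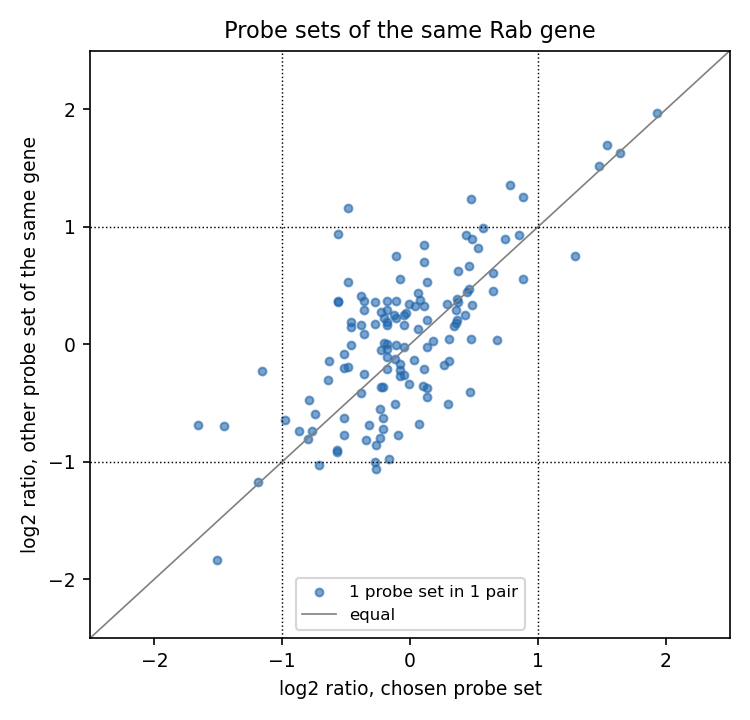
Log2 ratios between populations from the chosen probe set (horizontal) and from each other probe set of the same Rab gene (vertical), 135 points in all, 1 for each probe set and pair. The diagonal marks equal ratios and dotted lines 2-fold. Past 2-fold on the horizontal axis, all 10 points have the same sign on both axes, while points near 0 scatter to both sides.

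The proteins that act on Rabs were taken from 4 lists with 154 genes, of which 88 were measured and 71 reached the floor somewhere. At least 2-fold between populations were 35 of the 71, or 49.3%, against 41.4% of all genes. The order macrophages, CD11b+ cells, CX3CR1- cells, DCs was found in 23 of the 71, or 32.4%, against 11.3% of all genes. Over those with at most 1 signal under the floor it was 23 of 67. The summed macrophage markers had this order too, and their part in it was not tested. The lists were chosen with earlier results of these data known, so these shares only describe them.

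Exchange factors had 11 of 21 genes at the floor past 2-fold, beside the 41.4% of all genes. Of the 11, 6 were highest in macrophages, 3 in DCs and 2 in CX3CR1- cells. No such split by highest population was made over all genes past 2-fold, here or for the lists below. Rab3il1, a GEF for Rab8, had 734 in macrophages, 491 in CD11b+ cells, 290 in CX3CR1- cells and 85.3 in DCs, at least 7.14-fold apart. The Rab8a signal was highest in DCs, as was that of Rab3ip, another exchange factor past 2-fold. Rab3ip had 115 in macrophages, 118 in CD11b+ cells, 186 in CX3CR1- cells and 255 in DCs. Sbf2, a GEF of the DENN family, had 1178, 922, 657 and 202 in the same order, and Rin2, a GEF for Rab5, had 653, 349, 288 and 128. Dennd4c, a GEF for Rab10, stood at 504, 295, 173 and 83.8. Rab3gap2, part of a complex that acts on Rab3 and Rab18, had 403, 228, 161 and 112. Rab3il1, Sbf2, Rin2, Dennd4c and Rab3gap2 had the same order, highest in macrophages and lowest in DCs.

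Of the GAPs, 8 of 15 were past 2-fold, beside the 41.4% of all genes. Of the 8, 3 were highest in macrophages, 3 in CD11b+ cells and 2 in DCs. Tbc1d8 had 3534 in DCs, 1598 in CX3CR1- cells, 793 in macrophages and 542 in CD11b+ cells, 6.52-fold apart. Evi5 had 489 in CD11b+ cells, 372 in macrophages, 244 in CX3CR1- cells and 99.0, under the floor, in DCs. Tbc1d10a, a GAP for Rab27 and Rab35, had 1324 in macrophages, 1126 in CD11b+ cells, 1024 in CX3CR1- cells and 420 in DCs. Tbc1d24 had 283, 204, 151 and 58.3 in that order.

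Effectors and tethers had 15 of 29 genes past 2-fold, beside the 41.4% of all genes. Of the 15, 10 were highest in macrophages, 3 in DCs and 2 in CX3CR1- cells. Lrrk2, a kinase that phosphorylates Rab8a and Rab10, had 1172 in DCs, 209 in CX3CR1- cells, 111 in CD11b+ cells and 76.1 in macrophages, at least 11.4-fold apart. Rusc2, which binds Rab1 and Rab35, ran the opposite way with 774 in macrophages, 480 in CD11b+ cells, 414 in CX3CR1- cells and 48.0 in DCs, at least 7.53-fold apart. Rab11fip5, an adaptor of Rab11, had 508, 210, 156 and 54.1 in that order, whereas Rab11a was highest in DCs. Rilpl2, which binds phosphorylated Rab8 and Rab10, had 9901, 7321, 6210 and 2425. Among 6 genes of prenylation and membrane recycling at the floor, 1 was past 2-fold, beside the 41.4% of all genes. That was Rabif, a chaperone of nucleotide-free Rabs, with 234 in macrophages, 230.1 in DCs, 206 in CD11b+ cells and 116 in CX3CR1- cells. Rab5if had 3705 in DCs and 1680.0 to 1902 elsewhere, and Rab26os was under the floor throughout.

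**Figure D5:**
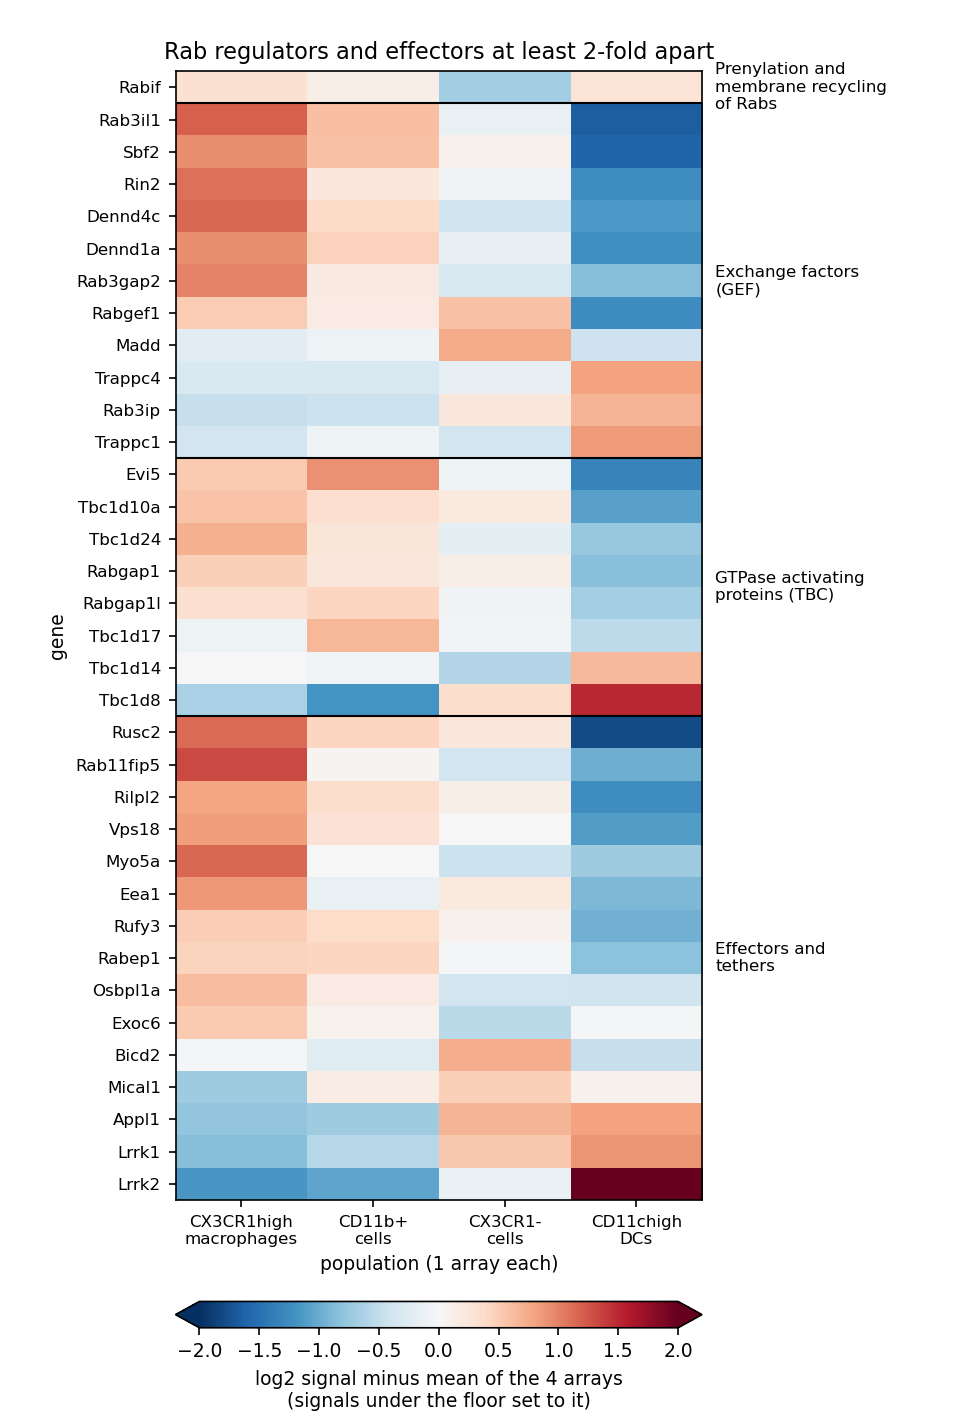
Heat map of the 35 regulators and effectors of Rabs at least 2-fold apart, by list, with 1 column per population (1 array each). Colour is the log2 signal, floored at 103, minus the mean of the 4 arrays, red above and blue below. Most exchange factors and effectors are red in macrophages and blue in DCs, while Lrrk2 and Tbc1d8 are red in DCs.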

How the data were processed

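RNA from 4 sorted populations was measured on Affymetrix 3′ arrays with the GeneChip 3'IVT Express kit, 1 array each, per the labels' protocols. The authors deposited 1 linear intensity for each probe set, computed with MAS5 (version unknown here), per the submitters' processing notes. The mean with 2% trimmed at each end was 500.3 on every array and the lowest signal was 1. Detection calls were not used here. Of 22690 probe sets, 64 were controls, 20380 named 1 gene, 691 several and 1555 none in the platform's table, and those naming 1 gene were used. All 50 Rab GTPase genes were found in RefSeq by Entrez number under the same symbol. A gene with several probe sets was read from the set whose log2 signals had the highest mean, sets ending in _x_at being taken last. Genome positions are given for the 2 promoter windows only, as no build was used for the arrays.

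No test was possible with 1 array per population, so counts are given beside those over all genes. Named with all signals were members at least 2-fold apart in any pair, and in each regulator list up to 4 genes furthest apart on floored signals, others being given by range. Rab3gap2 and Rab5if were added as genes the rule took, and Rabif is the only one of its list. Rab3ip was added beside Rab3il1 after its values were seen. Rab1a, Rab5c, Rab7, Rab8b and Rab32, under 2-fold, were also given in full, and Rab25 by its signals, a choice made after their values were seen. The members, roles and lists were chosen with earlier results of these data known. The computing of ratios was checked on simulated data. Changes were put only into genes whose starting signals lay far above the floor, so that check does not cover calls on dim genes such as Rab13 and Rab15. Alternatives were 8, of floor, scaling and probe set. Leaving out the DC or the CX3CR1- array, and the alternatives for the counts of highest over lowest signal and of signal orders (among them only genes with at most 1 signal under the floor), were added after seeing the data. Tools were Python 3.11.15, numpy 2.4.6 and pandas 2.3.3.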

Additional observations from a re-analysis of the deposited data

How the results depend on the processing

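Of the Rab counts under the alternatives, 85 lay within 1.5 times the main count and 30 did not. With the floor at the 25th percentile (22.9), macrophages over CD11b+ cells had 1 of 46 Rab genes higher and 1 lower, against 6.76% and 7.90% of all genes. CX3CR1- cells over DCs had 4 of 44 higher, against 15.9%, and CX3CR1- over CD11b+ cells 3 lower. Raising the floor to the 75th percentile (453) left macrophages with 3 higher over DCs and 3 over CX3CR1- cells. CX3CR1- cells over DCs had 3 lower, CD11b+ cells over DCs 2 higher, CX3CR1- over CD11b+ cells 0 lower, and 7 of 27 genes were 2-fold apart in any pair. With no floor, where ratios between dim signals count, 24 of 50 genes were 2-fold apart in any pair, and 63.0% of all genes, which was 34.3% with the floor at the 75th percentile. Macrophages then had 3 higher and 3 lower over CD11b+ cells, 12 and 5 over DCs, and 8 and 2 over CX3CR1- cells. CX3CR1- cells over DCs had 6 higher, CD11b+ cells over DCs 9 higher and 5 lower, and CX3CR1- over CD11b+ cells 1 higher and 6 lower. With the 25th percentile added to each signal, macrophages over CD11b+ cells had 1 and 1 and CX3CR1- cells over DCs 3 higher. With equal medians, macrophages over DCs had 4 lower, CX3CR1- cells over DCs 8 lower, and CD11b+ cells over DCs 2 higher and 7 lower. Equal medians moved the median log2 ratio of all genes over the DCs by -0.29 for macrophages, -0.29 for CD11b+ cells and -0.20 for CX3CR1- cells, and quantile normalization by -0.11, -0.12 and -0.07. Without the DC array, an alternative chosen after seeing the data, 5 genes were 2-fold apart. Of 206 alternative values of the 27 called ratios, 15 were under 2-fold, in 11 of the ratios, and 0 had the opposite sign. In 10 further cases no ratio could be formed, among them those of Rab13, Rab15 and Rab34, all under the floor at the 75th percentile. Shares of all genes at each setting moved as well, from 4.66% to 12.1% for macrophages over CD11b+ cells with no floor, for instance. Most counts in this paragraph stand without the share of all genes at their setting. They describe the settings and are no result about the Rab genes. The cause of the lost calls was not tested. Signal over background limits what can be said of the 12 genes under the floor. No paired analysis was possible because each population had 1 array.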
